A study of Mus musculus with 14 samples.

Results

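2D-iHepSC and Fib, with 2 libraries each, were compared across 14086 of the 28022 genes in the deposited count table. These are the genes whose log2(count + 1), averaged over the 4 libraries, reached 3. It addresses what direct conversion of fibroblasts into hepatic stem-like cells turned on and off. Fib are mouse embryonic fibroblasts, prepared from mid-gestation C57BL/6J embryos and grown in a serum-containing DMEM medium. 2D-iHepSC are cells of the same strain converted with lentiviruses that carry mouse *Oct4* (*Pou5f1*) and *Hnf4α* (*Hnf4a*) under the SFFV promoter, a viral promoter active in many cell types, and then moved to a William's E medium with hepatocyte maintenance supplements. They were grown as a 2D culture without iECs (induced endothelial cells). The medium named for that culture is the iHEA medium, an equal mix of hepatic and endothelial media with oncostatin M, bFGF and VEGF. Fib libraries received neither factor nor, as far as the methods say, these media, so the factors, the media and the time in culture cannot be told apart here. The labels give no age for the 2D-iHepSC culture and do not say whether the pair of libraries of a condition came from separate cultures, so the p-values measure the spread between these libraries, which may be technical. The series holds 14 libraries in 7 conditions, and the other 10 (2D-iHepSCiEC, the 3D assembloids 3D-iHA and 3D-iHEA, Adult-Liver and Fetal-Liver) are used only to show where genes gained or lost here were found elsewhere.

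Fibroblasts make and remodel the extracellular matrix and carry positional memory in their Hox genes, whereas liver epithelium is held together by cadherins, claudins and desmosomes and filled with keratin filaments. In the liver, a small network of transcription factors, among them HNF4α, FOXA2, GATA4 and the C/EBP factors, switches on the genes for plasma proteins and metabolism in hepatocytes, and a partly shared network sets up cholangiocytes, the cells of the bile ducts. Direct conversion forces such factors on a differentiated cell in order to install the target network without a pluripotent stage.

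Total counts were 33037482 and 27632648 in Fib and 33001727 and 29186798 in 2D-iHepSC, and 3 counts, taken as the upper limit for a gene without any, stood for 0.0908 to 0.109 CPM (counts scaled to the library size, here the total count). Pearson's r of log2 CPM across genes, which are not independent replicates, was 0.997 within Fib, 0.997 within 2D-iHepSC (0.9967 and 0.9965) and 0.578 to 0.579 between them. Libraries of 1 condition varied by 3.23% per gene (edgeR's common coefficient of variation), and the chi-square statistic per gene was 3.01 in Fib and 3.49 in 2D-iHepSC, where sampling noise alone gives about 1. The pairs thus differed by more than counting noise and were not counted as 1 library, which does not show that they are separate cultures.

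By edgeR's quasi-likelihood test with Benjamini-Hochberg adjusted p-values under 0.05, 6098 genes (43.3%) were higher and 6238 (44.3%) lower in 2D-iHepSC, together 87.6% of those tested. The test pools the spread over genes (median prior degrees of freedom 50.8). Each p-value therefore rests mostly on that pooled spread and little on the gene's own 4 libraries. The groups did not overlap in CPM, with 2D-iHepSC higher, for 46.2% of tested genes and, with 2D-iHepSC lower, for 47.1%. Since the libraries of a condition were so close, a gene is said to have risen or fallen below only if it also changed at least 2-fold. This left 2956 genes that rose (21.0% of those tested) and 3557 that fell (25.3%), together 46.2%. A gene was called turned on when it had no more than 3 counts in either Fib library and at least 1 CPM in both 2D-iHepSC libraries, and turned off in the reverse case. 335 genes were turned on, of which 295 passed the filter (2.09% of those tested), and 711 were turned off, of which 639 passed it (4.54%). A tested gene of this kind passed the filter only through its high group. Counts of list members that rose or fell therefore rest partly on the filter. In 144 of the genes turned on and 263 of those turned off, the low group had no count at all. The median level in the high group was 4.37 CPM for genes turned on and 6.87 CPM for genes turned off, so most of both sets were genes of low level.

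**Figure D1:**
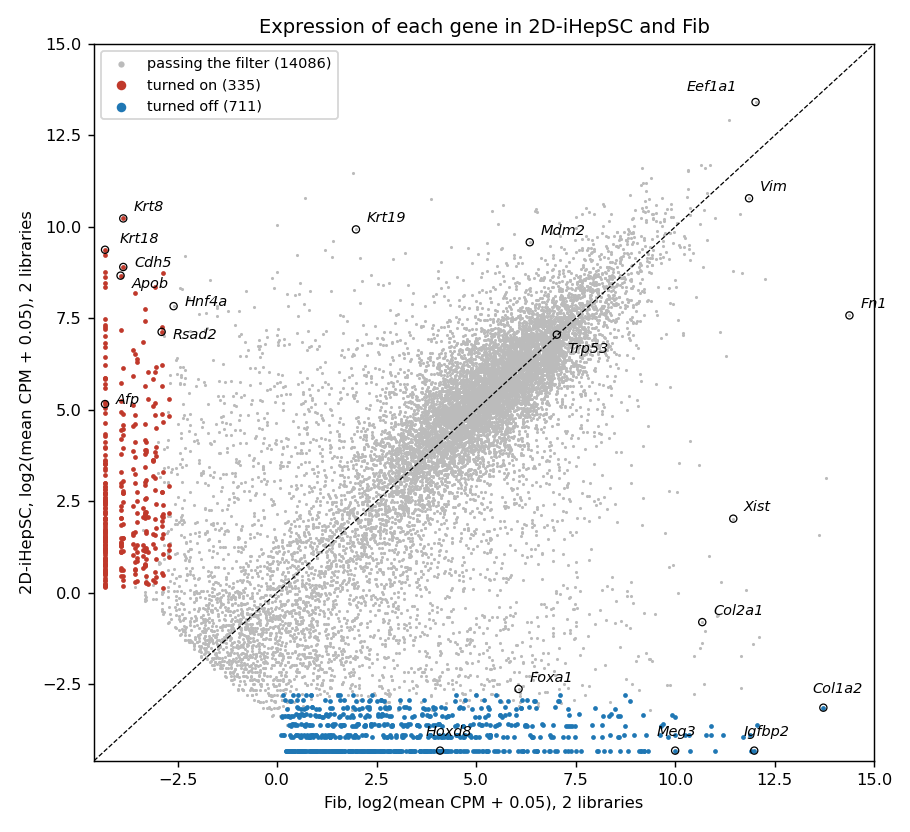
Mean level of each gene in Fib (horizontal axis) and 2D-iHepSC (vertical axis), both as log2(mean CPM + 0.05) over 2 libraries. Grey points are the 14086 genes passing the filter, red points the 335 genes turned on, blue points the 711 genes turned off, and circles mark named genes; the dashed line is equality. *Krt8* and *Krt18* lie at the upper left and *Col1a2* and *Igfbp2* at the lower right, away from the mass of genes near the line.

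*Hnf4a*, a nuclear receptor needed for hepatocyte identity (GRCm38 chromosome 2, bases 163506808 to 163572910), showed 5 and 2 counts in Fib and 7670 and 6875 in 2D-iHepSC, which is 0.115 ± 0.0569 against 228 ± 2.44 CPM (mean ± SD, n = 2). Its log2 fold change was 10.86 ± 0.12 (SE, adjusted p = 4.69e-57 by edgeR's quasi-likelihood test). *Pou5f1*, the pluripotency factor OCT4 (chromosome 17, 35506018 to 35510772), had no count in Fib and 20 and 26 counts in 2D-iHepSC, 0.728 ± 0.197 CPM (SD, n = 2), at least 6.50-fold higher than the level of 3 counts. It was below the filter and not tested. The delivered factors thus differed widely in level, with *Hnf4a* the higher in both libraries. The deposited counts are per gene, so reads of the viral and of the endogenous copy cannot be told apart for either factor.

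Of 23 liver transcription factors, 17 were tested, 10 rose, the delivered *Hnf4a* included, and 4 fell, against 21.0% and 25.3% of all tested genes. The share that fell was thus near that of all tested genes. The median log2 fold change was 3.51 against -0.02 over all tested genes. *Foxa2*, a pioneer factor of foregut endoderm, went from 7 and 9 counts to 2738 and 2481. *Gata4*, which acts with it in early liver, had 5 and 4 counts in Fib and 1945 and 1794 in 2D-iHepSC, and *Gata6* 130 and 100 against 1490 and 1357. Both endoderm GATA factors thus rose. *Nr1h4*, the bile acid receptor FXR, had no count in Fib and 115 and 111 counts in 2D-iHepSC, at least 31.6-fold higher. *Prox1* and *Hhex*, which early hepatoblasts need, rose as well, to 72 and 73 counts and to 142 and 124 counts. *Cebpb* rose less (log2 1.37 ± 0.07).

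The 4 liver factors that fell were *Foxa1*, *Rxra*, *Cebpa* and *Ppara*. *Foxa1*, the close relative of *Foxa2*, had 2075 and 1858 counts in Fib and only 3 and 4 in 2D-iHepSC (log2 fold change -9.20 ± 0.16), so the FOXA pair moved in opposite directions. *Rxra*, the shared partner of many nuclear receptors, went from 4917 and 4231 to 718 and 653 counts. *Cebpa*, a driver of hepatocyte maturation, went from 195 and 188 to 75 and 81. *Foxa3* had 2 and 4 counts in Fib and none in 2D-iHepSC, and *Onecut1* and *Nr1i3* had none in any of the 4 libraries. The network was therefore present in part, with *Foxa2*, *Gata4* and *Nr1h4* gained and *Foxa1*, *Foxa3*, *Cebpa* and *Nr1i3* low or without a count.

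**Figure D2:**
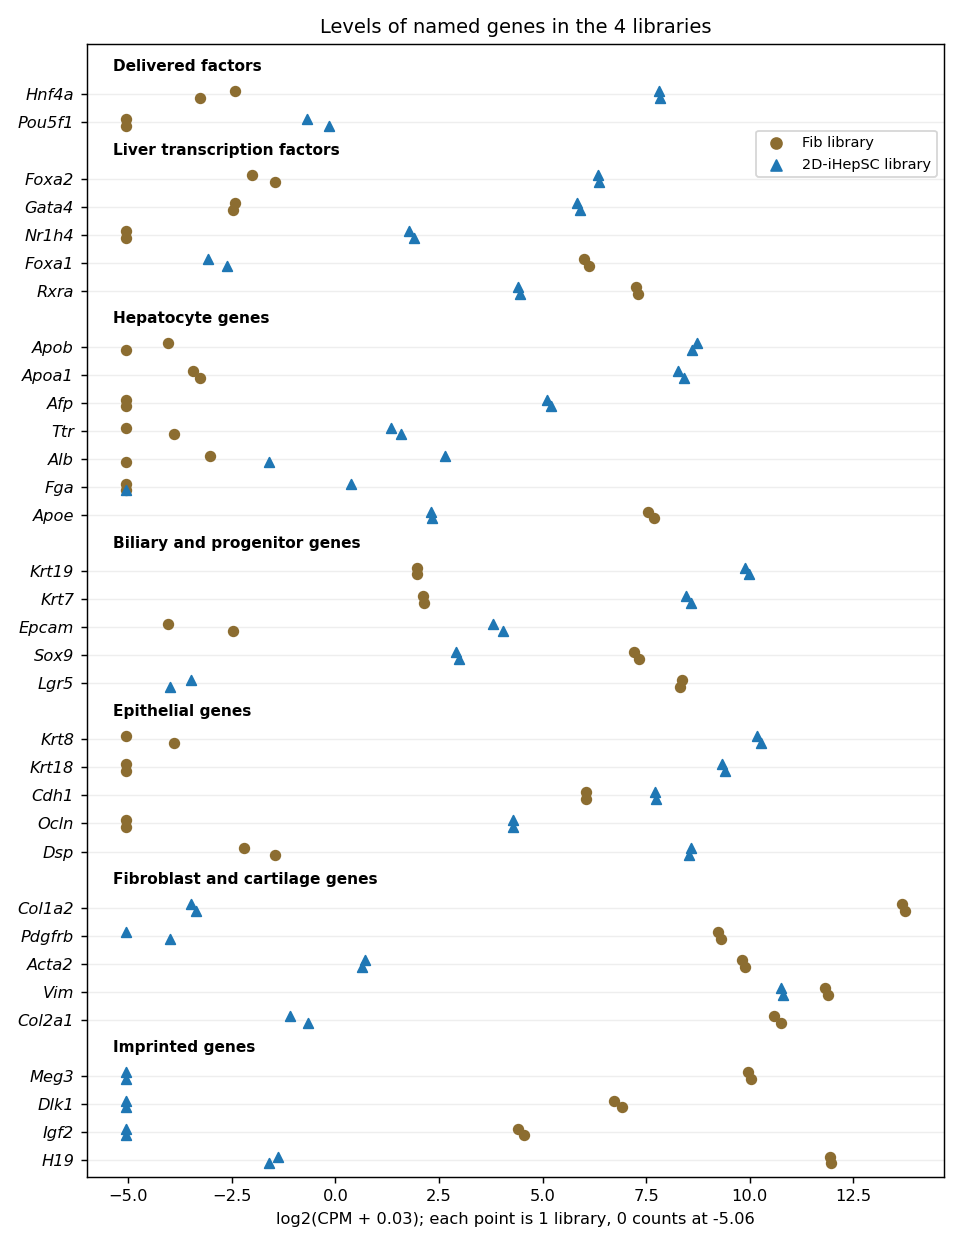
Level of 33 named genes in each library as log2(CPM + 0.03); brown circles are the 2 Fib libraries and blue triangles the 2 2D-iHepSC libraries, and a gene without a count lies at -5.06. The groups lie apart for all genes shown except *Fga*, where 1 of the 2D-iHepSC libraries has no count, as Fib.

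Of 35 genes for hepatocyte plasma proteins and enzymes, only 13 passed the filter, 6 of which rose and 3 fell, against 21.0% and 25.3% of all tested genes, with a median log2 fold change of 0.12 against -0.02. With no filter on low values, 19 were called at least 2-fold higher, beside 3687 genes in all. The genes this adds lay below the filter, where counts were few, as described below. The 6 that rose were *Apob*, *Apoa1*, *Afp*, *Ttr*, *Alb* and *Cyp27a1*. *Apob*, the scaffold protein of VLDL, had 1 count and none in Fib and 14328 and 11692 in 2D-iHepSC (406 ± 22.6 CPM, SD, n = 2). *Apoa1*, the main protein of HDL, had 2 counts in each Fib library and 10525 and 10243 in 2D-iHepSC. *Afp*, the fetal counterpart of albumin, had none against 1172 and 1096 counts, at least 317-fold higher. The levels of these 3 genes in the liver libraries put the gain in proportion. On a scale common to the 14 libraries, mean *Apob* was 9170 CPM in adult and 878 CPM in fetal liver, mean *Apoa1* 12600 and 1260 CPM, and mean *Afp* 7.06 and 12200 CPM. *Ttr*, which carries thyroid hormone and retinol-binding protein, reached only 85 and 89 counts. *Cyp27a1*, an enzyme of bile acid synthesis, rose from 99 and 84 to 1629 and 1469 counts.

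*Apoe*, *Rbp4* and *Abcb11* fell. *Apoe*, a lipoprotein component made by many cell types, was the largest of these, with 5986 and 5519 counts in Fib against 167 and 150 (log2 fold change -5.30 ± 0.07). *Rbp4*, the retinol carrier, had 404 and 310 counts against 160 and 141. Summed over the 35 genes, the level was 238 and 255 CPM in Fib and 878 and 867 CPM in 2D-iHepSC, and 767700 and 726700 CPM in the adult liver libraries on the common scale. 24 of the 35 genes had no more than 25 counts in either 2D-iHepSC library.

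Several hepatocyte genes differed between the 2D-iHepSC libraries themselves. *Alb*, the most abundant hepatocyte protein, had 3 counts and none in Fib, 210 in 2D-iHepSC replicate 1 and 9 in replicate 2. The fibrinogen genes *Fga*, *Fgb* and *Fgg* had 43, 22 and 23 counts in replicate 1 and none in replicate 2. The urea cycle enzyme *Cps1* had 17 and 3 counts, and the gluconeogenic enzyme *Pck1* 12 and 0. In all, 12 of the 35 genes had a count in replicate 1 and none in replicate 2, and none showed the reverse. Replicate 1 was the deeper library by 33001727 to 29186798 counts. *Afp*, *Apob*, *Apoa1* and *Ttr* did not share this pattern. The log2 fold change of *Alb* was 5.94 ± 0.80 with both libraries and 2.47 without replicate 1, where 1 library with 9 counts stood for 2D-iHepSC. The direction held, while the size rested on replicate 1. What else moved with these genes in replicate 1 was not tested.

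Among 6 short motifs searched on both strands in the 250 bases before the start of each gene in RefSeq (GRCm38.p6), the HNF4 site CAAAGTCCA was found in 2 of the 26 hepatocyte genes with a promoter in that table, *Cyp3a11* and *Cyp8b1*, neither of which was among the 6 that rose, against 0.5% of all 27025 genes. It was in 1 of 244 genes turned on and in 0 of 18 liver transcription factors. A match is a description of these letters and not a bound site.

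Of 20 biliary and hepatic progenitor genes, 17 were tested, 9 rose and 7 fell, against 21.0% and 25.3% of all tested genes. The bile duct keratins *Krt7* and *Krt19* had 138 and 117, and 126 and 104 counts in Fib, and 11888 and 11539, and 31981 and 30227 counts in 2D-iHepSC. *Epcam*, an adhesion molecule of hepatic progenitors, went from 1 and 4 to 475 and 491 counts. *Cd24a*, *Anxa4*, *Itgb6*, *Tnfrsf12a*, *Ggt1* and *Hes1* rose as well, by log2 1.54 to 7.71. Other names of the same list went the other way. *Sox9*, the transcription factor of ductal progenitors, fell from 4790 and 4304 to 253 and 235 counts, and *Spp1* (osteopontin) from 11918 and 9783 to 484 and 424. *Lgr5*, a receptor that marks regenerating progenitors, had 10581 and 8518 counts in Fib and 2 and 1 in 2D-iHepSC, a ratio of 6890 with a 95% exact Poisson interval of 2360 to 33400 that covers counting error only. *Dlk1*, a hepatoblast surface protein, had 3381 and 3244 counts in Fib and none in 2D-iHepSC. *Aqp1*, *Cftr* and *Slc4a2*, which serve bile secretion, fell by log2 values of 1.69 to 6.60. *Prom1* was low throughout, at 1 and 2 against 3 and 3 counts. The biliary list was therefore split, with the keratins *Krt7* and *Krt19* higher and *Sox9* lower.

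Of 40 epithelial junction and identity genes, 30 were tested and 28 rose, against 21.0% of all tested genes. The median log2 fold change was 6.99, or 5.98 with genes at 0 set to their lower bound. *Krt8* and *Krt18*, the keratin pair of simple epithelia, had 0 and 1, and 0 and 0 counts in Fib and 39452 and 37176, and 21873 and 20442 counts in 2D-iHepSC. *Krt18* was at least 5920-fold higher. They were the most abundant of the genes turned on, *Krt8* at 1200 and *Krt18* at 663 CPM. *Cdh1*, E-cadherin, was already present in Fib at 2117 and 1770 counts and rose to 7173 and 6398 (log2 1.69 ± 0.05). *Dsp* and *Dsg2*, of desmosomes, had 6 and 9, and 1 and 0 counts against 12975 and 11135, and 770 and 615. At tight junctions, *Ocln* had none against 659 and 587 counts and *F11r* 7 and 3 against 8663 and 8369. Regulators of the epithelial state rose too, namely the splicing factor *Esrp1* (none against 194 and 194 counts) and the ETS factors *Elf3* (1 and 0 against 984 and 951) and *Ehf* (24 and 24 against 2195 and 1950). *Grhl2* and *Ovol2*, other factors of that kind, stayed low at 21 and 10, and at 3 and 3 counts, and were not tested. The 2 members that fell were *Cldn1*, with 289 and 210 counts against none, and the kidney-type cadherin *Cdh16*, with 2019 and 1721 counts against 1 and 2.

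The letters CAGGTG or their complement CACCTG, an E-box that repressors such as SNAI1 and ZEB1 can bind in epithelial promoters, were found in 16 of the 25 epithelial genes with a promoter in the RefSeq table, against 19.4% of all genes. The share was 60 of 244 for genes turned on, 87 of 487 for genes turned off and 0 of 17 for fibroblast matrix genes. Other lists also held it more often than all genes, with 7 of 14 biliary genes, 7 of 18 liver transcription factors, 3 of 5 squamous markers and 3 of 8 cartilage and bone markers, a list whose tested members all fell. The promoters of *Krt8*, *Krt18* and *Epcam* are shown as those of the largest changes in this list and of a progenitor marker, with the E-box in capitals (chr15:102004343-102004592, minus strand; chr15:102027966-102028215, plus strand; chr17:87635729-87635978, plus strand).
Krt8: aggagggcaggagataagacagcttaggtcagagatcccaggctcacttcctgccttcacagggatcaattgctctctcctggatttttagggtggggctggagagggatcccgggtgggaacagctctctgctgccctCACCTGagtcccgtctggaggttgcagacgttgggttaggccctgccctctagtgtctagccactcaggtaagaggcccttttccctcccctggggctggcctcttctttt
Krt18: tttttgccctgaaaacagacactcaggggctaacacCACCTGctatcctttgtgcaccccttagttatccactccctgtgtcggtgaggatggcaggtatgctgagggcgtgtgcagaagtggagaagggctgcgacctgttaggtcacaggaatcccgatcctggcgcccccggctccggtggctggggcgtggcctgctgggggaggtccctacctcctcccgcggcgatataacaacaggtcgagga
Epcam: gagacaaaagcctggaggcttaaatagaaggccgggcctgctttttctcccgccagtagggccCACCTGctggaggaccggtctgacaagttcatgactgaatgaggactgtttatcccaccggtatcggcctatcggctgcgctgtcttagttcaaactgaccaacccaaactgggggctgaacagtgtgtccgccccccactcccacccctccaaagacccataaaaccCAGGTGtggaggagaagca
*Krt8* and *Krt18* hold 1 match each, 111 and 214 bases before the start, and *Epcam* holds 2. In the same libraries *Snai1* fell from 4124 and 3859 to 281 and 275 counts and *Zeb1* from 2881 and 2349 to 1644 and 1397, the second by less than 2-fold (log2 -0.90 ± 0.05). Whether these changes are linked was not tested. Of the other motifs searched, the short p53 site GGGCATG was in 1 of 16 growth arrest and p53 target genes (3.7% of all promoters), the TEAD site GGAATG in 7 of 16 TGF-beta and YAP genes and 5 of 10 contractile genes (14.4%), and the palindromic glucocorticoid response element GNACANNNTGTNC in 2 of 12 glucocorticoid target genes (0.4%).

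In the keratin family, only 16 of 54 genes were tested and 13 of these rose, against 21.0% of all tested genes. Of the tested keratins, 8 were turned on, against 2.09% of all tested genes. These 8 passed the filter only through 2D-iHepSC, so the count that rose rests partly on the filter. *Krt8* and *Krt18* belong to a run of 5 neighbouring genes on chromosome 15 from 101676023 to 102032027 (*Krt6b*, *Krt6a*, *Krt5*, *Krt8* and *Krt18*) in which no Fib library had more than 3 counts, taken among genes that were tested or turned on or off. *Krt23* had none against 14850 and 13058 counts, *Krt14*, of basal squamous cells, 2 and 1 against 7013 and 6627, and *Krt20*, of gut epithelium, 0 and 3 against 2164 and 1996. The gain thus spread over simple, squamous and gut keratins. Of the 10 tested claudins, 6 rose and 4 fell (background 21.0% and 25.3% of all tested genes). *Cldn18*, a stomach and lung claudin, was at least 3560-fold higher (none against 13542 and 11931 counts) and *Cldn2*, a pore-forming claudin, went from 46 and 39 to 11916 and 10528. *Cldn19* fell from 5174 and 4226 counts to 1 and 0.

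Fibroblast genes were lost nearly throughout. All 36 genes of fibroblast matrix and surface were lower in 2D-iHepSC, 35 of them at least 2-fold (25.3% of all tested genes fell), with a median log2 fold change of -10.78, or -9.95 with genes at 0 set to their bound. Their summed level was 84040 and 86860 CPM in Fib and 2464 and 2514 CPM in 2D-iHepSC. *Col1a2*, a chain of type I collagen (chromosome 6, 4504814 to 4541544), had 424268 and 370831 counts against 2 and 2. *Col3a1* had 118792 and 103904 counts against 0 and 1. *Col1a1* had 384378 and 347938 counts and kept 93 in each 2D-iHepSC library. The receptor *Pdgfrb* had 19403 and 16894 counts against 0 and 1, and *Pdgfra* 14267 and 11578 against 15 and 16. *Fn1* (fibronectin) and *Sparc* fell but kept many counts, at 6572 and 5654, and at 13009 and 11452. *Vim*, the intermediate filament protein of mesenchymal cells, was still abundant, with 116652 and 101343 counts against 58862 and 53528 (log2 -1.07 ± 0.04), and *Cdh2* differed by log2 -0.91 ± 0.05. Vimentin and N-cadherin were thus retained beside the new keratins. Fewer cells of a type and less RNA per cell cannot be told apart in these bulk libraries.

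In the collagen family, 31 of 37 tested genes fell and 2 rose, against 25.3% and 21.0% of all tested genes. These 2 were *Col18a1*, of epithelial and vascular basement membranes (1295 and 1192 against 45256 and 43174 counts), and *Col7a1*, the anchoring fibril collagen of stratified epithelia (530 and 486 against 4977 and 4833). *Col4a1*, of basement membranes in general, had 25539 and 23579 against 28822 and 26832 counts (log2 0.06 ± 0.04, adjusted p = 0.188 by edgeR's quasi-likelihood test). The laminins were mixed, as 4 of 11 rose and 5 fell, against 21.0% and 25.3% of all tested genes. *Lamb3*, a chain of an epithelial laminin, rose from 12 and 18 to 3814 and 3510 counts, and *Lama5* from 6646 and 6056 to 47882 and 45117. *Lama4* and *Lama2*, chains of mesenchymal and muscle laminins, fell from 8012 and 6407 to 1 and 0 and from 2838 and 2193 to 8 and 6. Among integrins, 7 of 22 rose and 11 fell (background 21.0% and 25.3% of all tested genes). *Itga6* and *Itgb4*, the laminin receptor of hemidesmosomes, went from 233 and 181 to 12346 and 10405 and from 115 and 128 to 18740 and 17201 counts, whereas the collagen receptor *Itga11* went from 4164 and 3638 to 3 and 2. Of the 14 tested ADAMTS matrix proteases 12 fell and none rose.

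All 12 tested contractile genes fell, whereas 25.3% of all tested genes fell and 21.0% rose. *Acta2*, smooth muscle actin, had 29066 and 25234 counts against 55 and 46, and *Myl9*, a myosin light chain, 7972 and 7056 against 2 and 2. *Tpm1*, *Cald1* and *Cnn2*, which most cells use, fell by log2 1.16 to 1.81 only. Of 24 tested mesenchymal transcription factors 16 fell and 3 rose, against 25.3% and 21.0% of all tested genes. *Prrx1*, a marker of limb and trunk mesenchyme, went from 6666 and 5567 to 10 and 9 counts, *Twist1* from 1569 and 1420 to 39 and 42, *Tbx15* from 9674 and 7878 to 196 and 188 and *Nfatc4* from 4984 and 4423 to 1 and 2. *Zeb2* (1102 and 901 against 1132 and 1056 counts, adjusted p = 0.846 by the same test) and *Runx1* (2802 and 2328 against 2778 and 2665, adjusted p = 0.611) did not pass the test. *Foxf2*, *Mkx* and *Shox2* rose by log2 1.37 to 1.84. Cartilage genes were lost as well: all 7 tested markers of cartilage and bone fell, among them *Col2a1* (49672 and 46541 counts against 15 and 18), *Alpl* (1506 and 1348 against 28 and 35) and *Sox5* (508 and 449 against none). The labels give Fib as fibroblasts only, and the summed level of the 10 cartilage and bone markers in Fib was 1771 and 1977 CPM. How many cells of that kind Fib held was not measured.

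**Figure D3:**
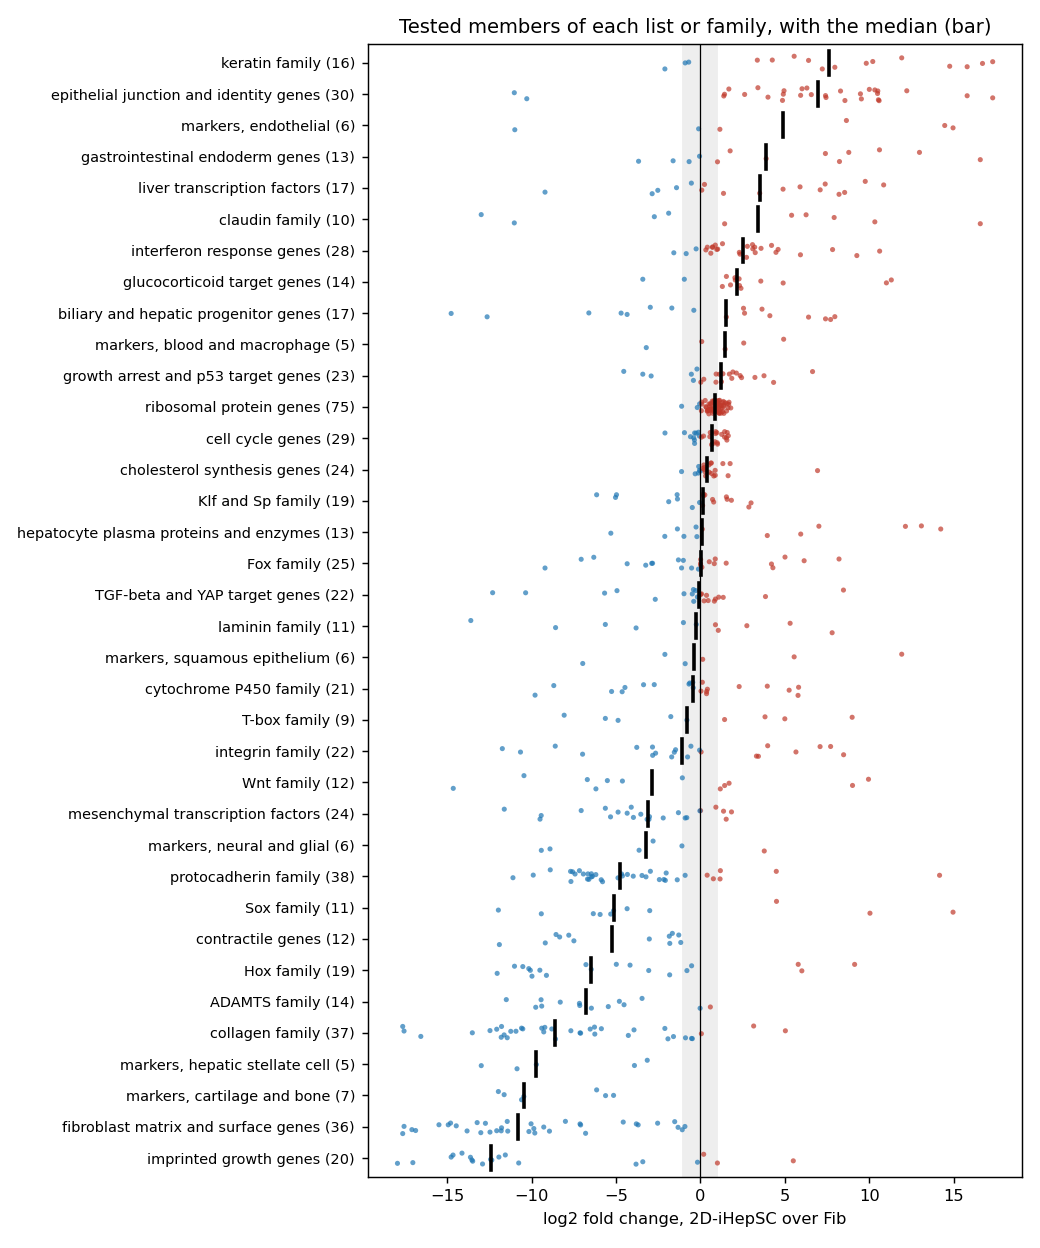
Log2 fold change of 2D-iHepSC over Fib (horizontal axis) for each tested member of the lists and families with 5 or more tested members, sorted by median. Red points are higher and blue points lower in 2D-iHepSC, the black bar is the list's median, the grey band spans -1 to 1, and the number of tested genes is in parentheses; keratins and epithelial genes lie at the top with medians of 7.59 and 6.99, imprinted and fibroblast matrix genes at the bottom with -12.39 and -10.78.

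The median of 20 imprinted growth genes was -12.39, below that of the matrix genes, or -9.18 with genes at 0 set to their bound, above that of the matrix genes (-9.95). Of the 20, 16 fell and 2 rose, against 25.3% and 21.0% of all tested genes. Imprinted genes are expressed from the copy of 1 parent, and many of them are active in embryonic tissue. *H19*, a non-coding RNA, had 126152 and 105871 counts in Fib and 12 and 9 in 2D-iHepSC, and its neighbour *Igf2*, a fetal growth factor, 684 and 630 against none. *Peg3* went from 103694 and 84927 to 9 and 7 counts, *Mest* from 56125 and 45923 to 16 and 12, and *Grb10* from 50773 and 42197 to 10 and 9. The *Dlk1*-*Dio3* cluster formed a run of 8 neighbouring genes on chromosome 12 from 109452823 to 110281097 in which no 2D-iHepSC library had more than 3 counts. *Meg3*, the long non-coding RNA of the cluster, had 32212 and 28018 counts in Fib and none in 2D-iHepSC, at least 10200-fold lower. *Rian* had 17627 and 14477 counts against none, and *Dio3*, which inactivates thyroid hormone, 2198 and 2054 against none. Of the conditions not compared here, fetal liver had *Meg3* at 718 CPM and adult liver at 4.59 CPM on the common scale, whereas 3D-iHA had 0.0605 CPM. *Igf2r* (12117 and 10234 against 15110 and 12721 counts) and *Zrsr1* changed by less than 2-fold. *Phlda2* (1 and 1 against 60 and 50) and *Nnat* (56 and 40 against 122 and 88) were the 2 that rose, and *Nnat* changed by hardly more than 2-fold (log2 1.01 ± 0.19).

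Of 19 tested Hox genes, which record position along the body axis, 14 fell and 3 rose, against 25.3% and 21.0% of all tested genes. *Hoxb2* to *Hoxb9* all fell, and 7 of them were without a count in 2D-iHepSC, among them *Hoxb3* (253 and 240 counts in Fib) and *Hoxb9* (188 and 163). *Hoxd8* had 577 and 432 counts against none. In the *Hoxa* cluster, *Hoxa2*, *Hoxa3* and *Hoxa5* fell while *Hoxa9* and *Hoxa10* rose, from 5 and 11 to 613 and 523 and from 6 and 6 to 401 and 336 counts, and *Hoxa13*, of the hindgut and distal limb, was turned on at 72 and 74 counts. Other transcription factors turned on were *Sox17*, of definitive endoderm and arterial endothelium (none against 4308 and 4004 counts), *Sox21* (0 and 1 against 728 and 691) and *Eomes*, of early endoderm (none against 69 and 63). *Sox5*, *Sox10*, *Sox18*, *Meox1* and *Sp7* were turned off. In the whole Sox family, 8 of 11 tested genes fell (25.3% of all tested genes did), *Sox4* and *Sox11* among them.

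The gained profile was not only hepatic. Of 32 gastrointestinal endoderm genes 13 were tested, 9 rose and 2 fell (background 21.0% and 25.3% of all tested genes). *Cdx2*, the factor that specifies intestine, had no count in Fib and 1094 and 1002 in 2D-iHepSC, at least 293-fold higher. *Lgals4*, a lectin of gut epithelium, rose from 89 and 64 to 25400 and 24625 counts, *Cdh17* from 1098 and 855 to 3675 and 3490, and *Vil1*, of brush borders, from 2 and 1 to 793 and 760. The stomach genes *Gkn2* (none against 192 and 213 counts) and *Cldn18* stood beside them. *Cdx1*, *Pdx1*, *Hnf4g*, *Fabp1* and *Muc5ac* had at most 4 counts in any of the 4 libraries, so the gut and stomach profile was partial too. Mean *Cdx2* was 0 CPM in adult and 1.04 CPM in fetal liver on the common scale.

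Of 10 endothelial markers 6 were tested, 4 rose and 1 fell, against 21.0% and 25.3% of all tested genes, and 4 were turned on. *Cdh5*, VE-cadherin (chromosome 8, 104101625 to 104144511), had 0 and 1 counts in Fib and 16261 and 14322 in 2D-iHepSC, 478 ± 0.81 CPM (SD, n = 2). *Vwf* had 2 and 2 counts against 1010 and 838. *Sox17*, described above, and *Esam* (85 and 75 against 202 and 185 counts) rose too, and *Tie1*, which was not tested, was turned on at 41 and 31 counts. Other members were low or lower. The defining markers *Pecam1* (5 and 5 counts), *Emcn* (0 and 1) and *Kdr* (25 and 10) were low in 2D-iHepSC, and *Erg*, an endothelial transcription factor, fell from 1270 and 1093 counts to 1 and 0. Of 10 squamous markers 6 were tested, 2 rose and 2 fell, not far from the 21.0% and 25.3% of all tested genes. *Krt14* and *Krt5* were turned on, whereas *Trp63*, their usual regulator, fell from 1064 and 925 to 10 and 7 counts and *Krt15* by log2 2.10. Of 12 blood and macrophage markers 5 were tested, 3 rose and 1, *Fcer1g* (30 and 23 against 3 and 3 counts), fell (background 21.0% and 25.3%). *Csf1r* had 33 and 28 against 40 and 30 counts and did not pass the test. The defining markers *Ptprc* and *Adgre1* had at most 2 counts in any library, while *Cd14* (60 and 64 against 2114 and 1997) and *Cd68* (113 and 117 against 809 and 674), which other cells can also make, rose. The 5 tested markers of hepatic stellate cells all fell (25.3% of all tested genes did), *Reln* from 9142 and 7667 to 1 and 1. Summed over the lists, endothelial markers were at 45.4 and 46.1 CPM in Fib and 646 and 650 CPM in 2D-iHepSC, and stellate markers at 313 and 316 against 1.30 and 0.834 CPM. Of 20 pluripotency genes only 3 were tested, *Klf4* and *Tfcp2l1* rose (497 and 440 against 3884 and 3554, and 24 and 31 against 4546 and 3834 counts) and *Klf2* fell. *Nanog* had 45 and 27 counts in Fib and none in 2D-iHepSC, and *Zfp42*, *Esrrb*, *Sall4* and *Prdm14* had at most 2 in any library.

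Of 28 interferon response genes, all were tested, 18 rose and 1 fell, against 21.0% and 25.3% of all tested genes, with a median log2 fold change of 2.54. These genes are induced in most cells by type I interferon through ISGF3, a complex that includes STAT2 and IRF9. *Rsad2* (viperin) was turned on, with 3 and 2 counts in Fib and 4477 and 4426 in 2D-iHepSC (log2 10.62 ± 0.15, adjusted p = 5.97e-53 by edgeR's quasi-likelihood test). *Oas2* and *Oas1a*, sensors of double-stranded RNA, rose from 12 and 6 to 6161 and 5993 and from 7 and 2 to 1161 and 1114 counts. *Irf7*, the factor that amplifies the response, rose from 106 and 112 to 2709 and 3021. *Mx1*, *Oasl2*, *Isg15* and *Usp18* rose by log2 3.22 to 5.93, and the MHC class I gene *H2-K1* from 279 and 275 to 5783 and 5384 counts. *Stat2* and *Irf9* changed less, by log2 1.31 and 0.89. The response was uneven, as *Ifit3* had 1175 and 901 counts in Fib and 553 and 695 in 2D-iHepSC (log2 -0.84 ± 0.08) and *Ifit2* differed by log2 -0.25, while *Ifit1* rose. *Psmb8* was the 1 gene that fell. In the 2D-iHepSC libraries, lentiviral delivery came together with conversion, and the 2 cannot be told apart.

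The letters GAAANNGAAA, a core of the element that ISGF3 binds, were found on either strand in the 250 bases before the start of 10 of the 23 interferon genes with a promoter in the RefSeq table, against 3.5% of all genes. The 10 were *Stat2*, *Ifit1*, *Ifit3*, *Isg15*, *Oas1a*, *Rsad2*, *Bst2*, *Gbp2*, *Gbp3* and *B2m*, so the set held *Rsad2*, with the largest increase of the list, as well as *Ifit3*, which was lower in 2D-iHepSC. *Rsad2* and *Oas1a* are shown with the matched letters in capitals (chr12:26456453-26456702 and chr5:120907526-120907775, both minus strand).
Rsad2: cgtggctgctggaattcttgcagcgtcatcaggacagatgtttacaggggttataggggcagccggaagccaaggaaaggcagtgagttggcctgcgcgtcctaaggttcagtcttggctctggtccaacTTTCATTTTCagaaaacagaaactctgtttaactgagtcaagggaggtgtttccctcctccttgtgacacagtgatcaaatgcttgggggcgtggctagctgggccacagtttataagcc
Oas1a: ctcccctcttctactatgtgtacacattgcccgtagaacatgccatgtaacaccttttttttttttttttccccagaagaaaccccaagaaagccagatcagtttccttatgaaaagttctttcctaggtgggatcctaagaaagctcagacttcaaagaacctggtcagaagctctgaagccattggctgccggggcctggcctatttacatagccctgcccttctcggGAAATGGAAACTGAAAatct
*Rsad2* holds 1 match, which starts 120 bases before the start of the gene, and *Oas1a* 2 overlapping ones within its last 20 bases.

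Of 23 growth arrest and p53 target genes, 13 rose and 3 fell (background 21.0% and 25.3% of all tested genes). p53 halts the cell cycle after damage or stress and induces its own inhibitor *Mdm2*, the cycle inhibitor *Cdkn1a* (p21) and pro-apoptotic genes. *Mdm2* had 2663 and 2141 counts in Fib and 24832 and 23912 in 2D-iHepSC, *Cdkn1a* 3234 and 2903 against 13266 and 12048, and *Pmaip1* 40 and 24 against 3678 and 3284. *Gadd45a*, *Ccng1*, *Sesn2* and *Eda2r* rose by log2 1.86 to 4.34. *Trp53* itself, which is regulated mainly as a protein, had 4131 and 3542 against 4545 and 3939 counts (adjusted p = 0.592 by edgeR's quasi-likelihood test). *Cdkn2a*, which encodes the arrest proteins p16 and p19ARF and accumulates in cultured fibroblasts, fell from 2219 and 1978 to 92 and 104, and *Sesn1* and *Cdkn1c* fell too. *Ccnd1*, cyclin D1, rose from 1590 and 1374 to 22983 and 20849.

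Cell cycle genes changed less, with 9 of 29 rising, not far above the 21.0% of all tested genes, and 1 falling, below the 25.3%, and a median of 0.66. The largest rises were those of the mitotic genes *Aurka* (700 and 598 against 2327 and 2101 counts) and *Ccnb1* (1383 and 1090 against 4421 and 3651). Replication genes were mixed. *Cdt1* and *Rrm2* rose, by log2 1.57 and 1.02, while *Mcm2* had 2488 and 2149 against 2487 and 2339 counts and *Mcm4* 3964 and 3210 against 2826 and 2360, and *Ccne1* fell from 707 and 562 to 159 and 162. *Mki67*, a proliferation marker, differed by log2 0.90 ± 0.05 and stayed short of 2-fold. Several p53 targets and several mitotic genes thus rose in the same libraries.

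Of 14 tested glucocorticoid target genes 12 rose and 1 fell, against 21.0% and 25.3% of all tested genes. *Fkbp5*, which the glucocorticoid receptor induces as a feedback inhibitor, went from 578 and 453 to 17241 and 16133 counts. *Zbtb16* and *Hif3a* were turned on, from 1 and 0 to 1790 and 1621 and from 0 and 2 to 2691 and 2350 counts. *Sgk1*, *Errfi1*, *Dusp1*, *Mt1* and *Per1* rose by log2 1.79 to 3.58, whereas the receptor *Nr3c1* had 3648 and 2964 against 1994 and 1714 counts (log2 -0.95 ± 0.05). The methods name dexamethasone, a glucocorticoid, as a supplement of the iHEA medium that was left out for 1 assay, so conversion and medium cannot be told apart for these genes. *Tat*, a liver gene under the same receptor, had none against 11 and 9 counts and was not tested.

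Of 24 cholesterol synthesis genes 4 rose and 1 fell, a share near the 21.0% and 25.3% of all tested genes or below it. The synthesis enzymes *Lss*, *Msmo1* and *Ebp* rose by log2 1.33 to 1.76. Of 22 tested TGF-beta and YAP genes 4 rose and 5 fell, again near the shares of all tested genes. *Ankrd1* rose from 27 and 26 to 11070 and 9492 counts, whereas *Ccn1* and *Ccn2*, targets of YAP as *Ankrd1* is, changed by log2 0.46 and -0.18. *Tgfb3* fell from 5620 and 4900 to 2 and 0 and *Tgfbi* from 8792 and 7408 to 167 and 177. Among 21 tested cytochromes P450, 5 rose and 7 fell, near the 21.0% and 25.3% of all tested genes. *Cyp1b1*, an extrahepatic enzyme, fell from 15593 and 12587 to 32 and 42 counts, and *Cyp3a11* and *Cyp2e1*, main enzymes of adult liver, had 7 and 0 and 19 and 0 counts in 2D-iHepSC.

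Per kilobase of exon, the largest gains in level were those of translation genes, with *Eef1a1* at 1660 ± 18.1 CPM per kb in Fib and 4370 ± 72.6 in 2D-iHepSC (SD, n = 2) and *Eef2* at 790 ± 36.6 and 2340 ± 109. *Rps15*, *Rpl8*, *Rpl4* and *Tpt1* were among the 10 largest, together with *Ftl1*, *S100a6*, *Gsto1* and *Rhox5*. Of 75 tested ribosomal protein genes 29 rose and 1 fell, against 21.0% and 25.3% of all tested genes, with a median log2 fold change of 0.88, and the median was 0.96 with library totals alone and 0.87 with DESeq2 size factors. Their sum was 30040 and 30410 CPM in Fib and 56580 and 57090 CPM in 2D-iHepSC. The largest losses in level were those of *Thbs1* (2340 ± 41.7 against 1.44 ± 0.0408 CPM per kb), *Igfbp2* (2190 ± 161 against 0), *Col1a1*, *Fn1* and *H19*. A fall in such abundant transcripts raises the share of all others in a library, and its part in the rise of the translation genes was not tested.

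By fitted change among genes with a mean of at least 100 counts in the higher group, the 15 largest increases held keratins (*Krt18*, *Krt8*, *Krt23* and *Krt6a*), *Cldn18*, *Cdh5* and *Sox17*, the X-linked *Rhox5*, *Trap1a* and *Xlr3a*, and the metabolic enzymes *Ugt2b34* and *Ces2g*. *Rhox5*, a homeobox gene of the reproductive tract and placenta, had no count in Fib and 20274 and 17815 in 2D-iHepSC, at least 5320-fold higher. *Ugt2b34*, a glucuronosyltransferase of liver, had none against 12000 and 10706 counts, and *Aim2*, a sensor of cytosolic DNA, none against 5349 and 4863. The 15 largest decreases were led by *Igfbp2* (123801 and 114165 counts against none) and *Igfbp5* (121498 and 102756 against none), which bind insulin-like growth factors. *Cxcl12*, a chemokine of stromal cells, had 108173 and 89662 counts against 1 and 0, and *Sfrp1*, a Wnt inhibitor, 19221 and 15623 against none.

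Where the 335 genes turned on were found in the rest of the series is a description, with a gene counted if both libraries of a condition reached 1 CPM. 299 (89.3%) were found in 2D-iHepSCiEC and 269 (80.3%) in each of 3D-iHA and 3D-iHEA, near the 81.3%, 80.8% and 81.0% of all tested genes. In liver, 149 (44.5%) were found in the adult and 130 (38.8%) in the fetal libraries, against 82.1% and 86.2% of all tested genes. Both livers had 99 of them, among which were *Krt8*, *Krt18*, *Apob*, *Apoa1*, *Afp*, *Ugt2b34* and *Ces2g*. 50 were found in adult liver only and 31 in fetal liver only. The other 155 (46.3%), such as *Trap1a*, *Gcnt3*, *Krt6a*, *Cdx2* and *Sox21*, were found in neither, against 10.9% of all tested genes. Many of the genes turned on are of low level in 2D-iHepSC, so the share depends on the level asked for. At 5 CPM in both libraries, 39.7% of them were found in 2D-iHepSCiEC, 54.9% in 3D-iHA and 53.4% in 3D-iHEA, below the 70.6% of all tested genes in each. Of the 711 genes turned off, 1 (0.1%) was found in 2D-iHepSCiEC, 27 (3.8%) in 3D-iHA and 22 (3.1%) in 3D-iHEA, but 276 (38.8%) in adult and 425 (59.8%) in fetal liver, tissues that hold stroma. Genes turned off in 2D-iHepSC were therefore rarely found in the other cultures of converted cells. At 1 CPM, 249 of the 711 genes turned off were found in neither liver, against 155 of the 335 turned on. At 5 CPM, 63.0% of genes turned on and 61.7% of those turned off were found in neither liver, against 22.4% of all tested genes. A high share found in neither liver was thus not particular to the genes turned on.

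**Figure D4:**
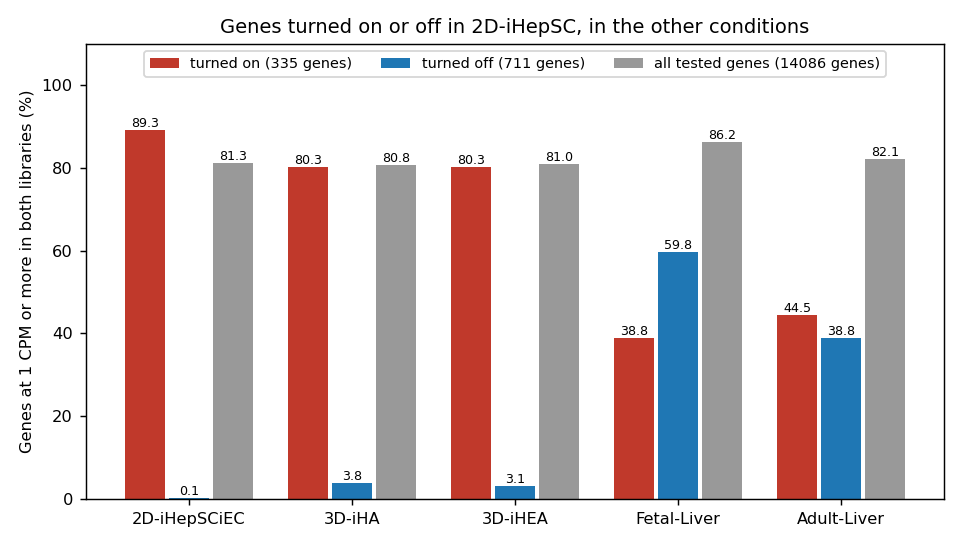
Share of genes that reached 1 CPM in both libraries of each other condition (vertical axis, percent), for the 335 genes turned on in 2D-iHepSC (red), the 711 turned off (blue) and all 14086 tested genes (grey). Red bars fall from 89.3% in 2D-iHepSCiEC to 38.8% in fetal liver, and blue bars rise from 0.1% to 59.8%.

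By chromosome, median log2 fold changes of the autosomes and X lay between -0.31 and 0.33 except on chromosome 12, where the median of 467 genes was -0.68, with 61 genes that rose and 183 that fell (39.2%, against 25.3% of all tested genes). The median of chromosome 10 was the highest, at 0.33 over 680 genes, and that of chromosome 19 the next lowest, at -0.31. Within chromosome 12, the windows from 0 to 20 and from 20 to 40 Mb had medians of 0.10 and 0.14, whereas the 4 windows from 40 to 120 Mb had -0.71, -0.75, -0.90 and -0.84. Within chromosome 10, the windows up to 40 Mb had medians of -0.05 and -0.04 and those from 60 Mb on 0.38 to 0.53. The chromosome 12 median stayed between -0.70 and -0.67 without any 1 library. *Dlk1*, *Meg3* and *Rian* lie in the part that was lower, and *Apob* and *Rsad2*, which rose, in the part that was not. The number of copies of any chromosome was not measured. The sex of the embryos is not in the labels, and sex-linked genes differed between the groups. *Xist*, which silences 1 X chromosome in female cells, had 93134 and 73323 counts in Fib and 161 and 98 in 2D-iHepSC, and the Y-linked *Ddx3y*, *Eif2s3y*, *Kdm5d* and *Uty*, with 200 and 152, 160 and 108, 98 and 92, and 43 and 27 counts in Fib, had none in 2D-iHepSC. Fib libraries thus held RNA of both kinds and 2D-iHepSC libraries little or none, and the part of this difference in any other result was not tested.

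**Figure D5:**
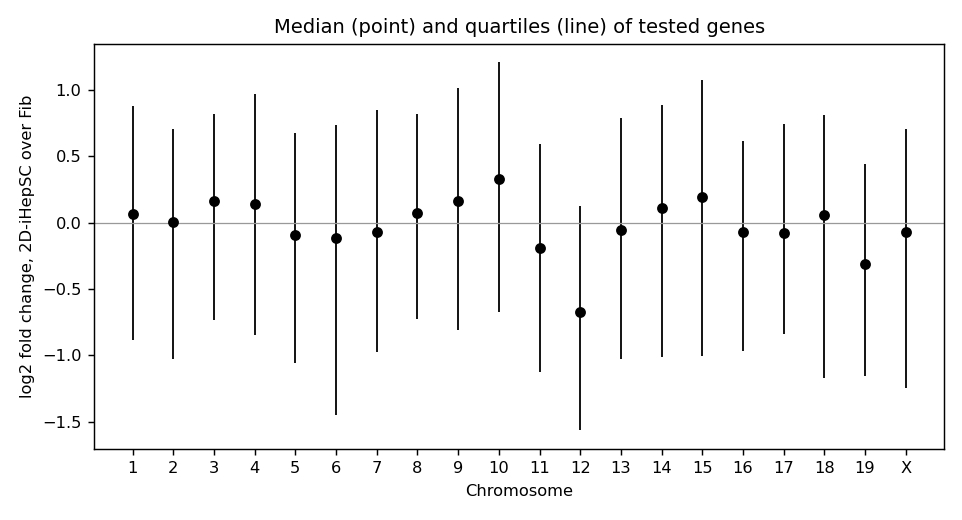
Median (point) and quartiles (line) of the log2 fold change of 2D-iHepSC over Fib for the tested genes of each autosome and X (horizontal axis). The Y chromosome, with 3 tested genes, is not shown. Among the chromosomes shown, chromosome 12 has the lowest median, -0.68, and chromosome 10 the highest, 0.33.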

How the data were processed

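RNA-seq libraries of 7 conditions were deposited by the authors as 1 table of read counts per gene, made, per the submitters' processing notes, with Trimmomatic 0.36, HISAT2 and HTSeq on GRCm38. The deposited values are whole numbers with unequal totals, so no normalization or log step had been applied to them. Fib and 2D-iHepSC, with 2 libraries each, were grouped by the GEO labels. edgeR 4.0.16 in R 4.3.3 was used with TMM factors and the quasi-likelihood test on the raw counts of these 4 libraries, and p-values were adjusted by Benjamini-Hochberg. Values in CPM use the TMM factors of the 4 libraries, or of all 14 where conditions are compared. Groups without a count were set to 3 counts for lower bounds of a fold, on TMM-scaled library sizes and not on the total counts. Replicate numbers did not pair the libraries (correlation of same-numbered deviations 0.060). Gene positions are of GENCODE vM21 (GRCm38). Alternatives were DESeq2 1.42.0, other scalings and filters, a replicate block and leaving out each library. Named genes are members of the gene lists and families, the 15 largest fitted changes and 10 largest changes per kilobase in each direction, transcription factors turned on or off, and the delivered factors. Members and lists were chosen with earlier results of these data known. Results on some genes are not reported here.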

Additional observations from a re-analysis of the deposited data

How the results depend on the processing

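Of 229 named genes followed under the alternatives, none reversed, while 28 of 2941 gene values lost their call and 5 gained one. With a replicate block, which the numbers do not support as a pairing, 6207 genes were called higher and 6345 lower, 2953 and 3557 of them at least 2-fold, and no list count moved by over 1.5 times. A test against a 2-fold change (glmTreat) called 2576 higher and 3175 lower, and left 1 imprinted gene and 1 skeletal muscle marker higher and 0 cholesterol and 0 ribosomal genes lower. Asking for 0 counts in the low group left 144 genes turned on and 263 off, and at least 5 CPM in the high group 146 and 397. With 5 CPM asked of the other conditions, genes turned on were found at 39.7% in 2D-iHepSCiEC, 53.4% in 3D-iHEA and 19.4% in fetal liver (70.6%, 70.6% and 72.3% of all tested genes), and genes turned off at 0.0% in 2D-iHepSCiEC, 0.8% in 3D-iHA, 1.0% in 3D-iHEA, 21.2% in adult and 32.3% in fetal liver.

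The filter on low values moved list counts most, since it sets which genes are tested. With a minimum mean of 5, genes at least 2-fold lower numbered 1 epithelial, 7 contractile, 1 gastrointestinal, 0 blood, 0 muscle, 4 cartilage, 3 neural, 1 squamous, 2 stellate, 1 sex-linked, 5 Hox, 0 keratin, 1 claudin, 5 Sox, 19 protocadherin, 4 Wnt and 0 ribosomal, and genes higher 0 imprinted, 1 muscle, 1 squamous, 0 sex-linked, 3 claudin, 2 T-box and 2 cytochrome P450. With no filter, 19 hepatocyte, 1 contractile, 14 gastrointestinal, 4 pluripotency, 2 adipocyte, 4 squamous, 2 stellate, 24 keratin, 1 ADAMTS and 11 cytochrome P450 genes were higher and 3 pluripotency and 3 keratin genes lower. DESeq2's Wald test and its size factors each left 1 imprinted gene higher, and the Wald test and a fit of all 14 libraries left 1 muscle marker higher.

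Without single libraries, 1 to 2 imprinted genes (1 without 2D-iHepSC replicate 1 or Fib replicate 2) and 1 to 2 muscle markers (1 without Fib replicate 2) were higher, and 1 to 2 interferon genes (2 without 2D-iHepSC replicate 2) and 1 to 2 keratins (2 without 2D-iHepSC replicate 2 or Fib replicate 2) lower. With 2 libraries a group, the spread rests on few libraries and is pooled over genes, and genes under the filter could not be compared.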

Other observations

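The other marker lists and gene families were described only by their counts of genes that changed at least 2-fold with an adjusted p under 0.05 by edgeR's quasi-likelihood test. All 3 tested adipocyte markers fell, 5 of 6 neural and glial markers fell and 1 rose, and 2 of 3 skeletal muscle markers rose and 1 fell. Of 38 tested protocadherins, adhesion proteins of neural and mesenchymal cells, 31 fell and 4 rose. Of 12 tested Wnt ligands 5 rose and 7 fell, of 9 T-box factors 4 rose and 4 fell, of 25 Fox factors 6 rose and 10 fell, and of 19 Klf and Sp factors 5 rose and 6 fell. Over all tested genes 21.0% rose and 25.3% fell, so the Klf and Sp counts and the count of Fox factors that rose were near the background. In the sex-linked list, 1 of 7 tested genes rose and 4 fell. *Tsix*, the antisense transcript of *Xist*, had no count in Fib and 94 and 62 in 2D-iHepSC; the counting is not stated to use strand, so reads of the overlapping pair cannot be told apart.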
